A study of Mus musculus with 8 samples.

Results

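The genes described here are 40 genes of the endoplasmic reticulum (ER) secretory pathway and of the unfolded protein response, followed through microarrays of mouse lymph nodes (LN). They were chosen by name, for their known roles. A probe set annotated to exactly 1 of these genes was taken, and where a gene had several, the one with the highest mean over the 8 arrays stood for it. This gave a level to 39 of the 40, among 12393 genes with a probe set of their own. Sec61g, a small subunit of the translocation channel, had only a probe set shared with other genes and is given no value. By role the 39 comprised 11 chaperones and cochaperones, 4 disulfide isomerases, 11 genes of translocation and signal peptide cleavage, 7 genes of degradation, and 6 sensors and transcription factors.

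LN came from H3RKO mice, labelled B6.129P2-Hrh3tm1Twl and lacking the histamine H3 receptor, and from WT C57BL/6 mice, both 8 weeks old, female and male. Mice were left untreated, or were taken 24 h after an injection of complete Freund's adjuvant (CFA) or of CFA together with pertussis toxin (CFA+PTX). Sample titles of the last group name PTX alone and the descriptions name CFA+PTX, and the group is called CFA+PTX here. Each array held RNA pooled from at least 3 mice, and there were 2 untreated arrays, 1 CFA array and 1 CFA+PTX array in each genotype. The p-values below therefore measure the spread between the untreated pools and, in the fits with a term for treatment, the departure of single arrays from that model. In the fits of a slope on reference genes, which have no term for genotype or treatment, they measure the scatter of all arrays about the slope. All levels are log2 signals, on which a difference of 1 is a 2-fold change. They compare 1 gene between arrays and do not rank genes by abundance.

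Secreted and membrane proteins enter the ER through the Sec61 channel, lose their signal peptide there, and are folded by chaperones and by enzymes that form disulfide bonds. Proteins that fail to fold are sent back to the cytosol for degradation. When unfolded protein accumulates, the sensors IRE1 (Ern1), PERK (Eif2ak3) and ATF6 act through the transcription factors XBP1, ATF4 and cleaved ATF6 to raise chaperone, translocation and degradation genes. Cells that secrete heavily, such as plasma cells and the acinar cells of glands, hold high levels of this machinery even at rest.

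The best known control sequence of these genes is the ER stress response element (ERSE), read as CCAAT, then any 9 bases, then CCACG, which binds NF-Y at one end and ATF6 or XBP1 at the other. RefSeq promoters on GRCm38.p6, 250 bases before to 50 bases after the start, were matched for 32 of the 40 genes (33 promoters, since Derl2 had a pair) and searched on both strands. An ERSE was found in 8 of the 33 promoters (24.2%), against 39 of 32851 promoters of all genes (0.119%). Several of these genes served to define the element, so the share is a description. The matches are shown because the 8 genes are compared with the others further on. Each is written 5′ to 3′ along its gene's strand, with the fixed bases in capitals, so that a match on the other strand begins with CGTGG.
Calr, chr8:84847075-84847093, minus strand: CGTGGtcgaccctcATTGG
Canx, chr11:50325800-50325818, minus strand: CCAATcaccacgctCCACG
Creld2, chr15:88819520-88819538, plus strand: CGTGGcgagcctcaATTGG
Dnajc3, chr14:118937827-118937845, plus strand: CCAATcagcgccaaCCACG
Hsp90b1, chr10:86705638-86705656, minus strand: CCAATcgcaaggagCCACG
Hsp90b1, chr10:86705533-86705551, minus strand: CGTGGtgaggcacgATTGG
Hspa5, chr2:34772025-34772043, plus strand: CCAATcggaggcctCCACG
Pdia6, chr12:17266491-17266509, plus strand: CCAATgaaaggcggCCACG
Syvn1, chr19:6046532-6046550, plus strand: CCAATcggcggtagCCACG

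The related ERSE-II, read as ATTGG, any base, then CCACG, was found in 2 of the 33 promoters (6.06%, against 0.0365% of all promoters). It shares the bases CCACG with ERSE, and those bases alone were in 75.8% of the promoters of these genes, against 32.8% of all promoters. The UPRE, TGACGTGG, which holds CCACG on its other strand, was in 0 of 33 (0.676% of all promoters). The CARE, TGATGNAA, an element read by ATF4, was in 1 of 33, that of Herpud1 (3.03%, against 3.97% of all promoters). Both ERSE-II matches and the CARE match are given along the gene's strand with the fixed bases in capitals.
Dnajb11, chr16:22857852-22857862, plus strand: ATTGGcCCACG
Herpud1, chr8:94386377-94386387, plus strand: ATTGGgCCACG
Herpud1, chr8:94386317-94386324, plus strand: TTgCATCA

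Whole promoters of 4 genes follow, chosen because the results below turn on them. Hspa5 is the classical readout of the response, Creld2 had the lowest p in the genotype comparison over all arrays, Sdf2l1 had the widest range over the arrays, and Eif2ak3 ran against most of the other genes. Capitals mark ERSE. The windows of Sdf2l1 and Eif2ak3 held no match to the 4 elements above, which says only that these letters are not in these 300-base windows.
Hspa5, chr2:34771840-34772139, plus strand: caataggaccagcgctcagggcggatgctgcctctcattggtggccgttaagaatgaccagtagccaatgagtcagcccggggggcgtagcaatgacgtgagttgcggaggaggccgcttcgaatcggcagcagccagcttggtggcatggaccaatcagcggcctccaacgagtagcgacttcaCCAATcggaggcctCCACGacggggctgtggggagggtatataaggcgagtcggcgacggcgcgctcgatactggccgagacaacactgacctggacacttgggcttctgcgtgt
Creld2, chr15:88819396-88819695, plus strand: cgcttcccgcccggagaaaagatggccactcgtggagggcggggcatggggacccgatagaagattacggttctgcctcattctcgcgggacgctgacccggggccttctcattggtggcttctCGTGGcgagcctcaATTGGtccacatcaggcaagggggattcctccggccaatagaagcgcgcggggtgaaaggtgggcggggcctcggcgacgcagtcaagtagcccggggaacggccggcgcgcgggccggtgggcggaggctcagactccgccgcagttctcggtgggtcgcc
Sdf2l1, chr16:17132334-17132633, minus strand: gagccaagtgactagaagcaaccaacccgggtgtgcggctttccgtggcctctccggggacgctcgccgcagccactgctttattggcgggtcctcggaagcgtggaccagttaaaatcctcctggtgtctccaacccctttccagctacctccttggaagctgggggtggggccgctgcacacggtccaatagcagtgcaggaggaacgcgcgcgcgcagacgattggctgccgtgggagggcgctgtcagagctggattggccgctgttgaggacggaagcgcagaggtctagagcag
Eif2ak3, chr6:70844265-70844564, plus strand: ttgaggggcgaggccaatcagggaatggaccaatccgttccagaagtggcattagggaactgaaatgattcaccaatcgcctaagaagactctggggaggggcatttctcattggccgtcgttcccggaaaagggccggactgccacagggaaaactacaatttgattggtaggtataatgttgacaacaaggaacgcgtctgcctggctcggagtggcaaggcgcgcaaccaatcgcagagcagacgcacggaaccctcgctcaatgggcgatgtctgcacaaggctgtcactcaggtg

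The arrays differed in a way that neither genotype nor treatment labels describe. Pip and Bpifa2, secretory products of salivary and lacrimal glands, were low in WT untreated replicate 1 (9.67 and 13.08) and far lower in WT CFA+PTX (4.28 and 7.09). In the other 6 arrays Pip lay between 12.79 and 13.46 and Bpifa2 between 14.03 and 14.13. Over 15 gland genes the mean log2 signal was 8.30 in WT untreated replicate 1 and 5.42 in WT CFA+PTX, against 10.67 to 11.42 in the others. These 2 arrays, both WT, are called gland-poor below. The mean of 10 plasma cell genes was lowest in WT CFA+PTX, at 9.07. It was 9.25 in WT untreated replicate 1 and 9.25 to 9.38 in the other 6 arrays. The list holds the ER folding and degradation genes Fkbp11, Txndc5 and Derl3, which, like Irf4, were lowest in WT CFA+PTX. Jchain, the joining chain of secreted IgM and IgA, was also lowest there, at 12.08 against 12.34 to 12.73 in the other 7 arrays. Sdc1, Prdm1, Tnfrsf17, Pou2af1 and Slamf7 were not lowest in WT CFA+PTX. A set of 8 pancreatic acinar genes, another secretory cell type, averaged 5.58 to 5.70, with none above the median gene. LN markers were high in every array, with means of 10.90 to 11.20 for 8 T cell genes and 11.21 to 11.52 for 8 B cell genes. The mean of 10 neutrophil genes was 8.00 to 8.94 in the 4 H3RKO arrays, highest in H3RKO CFA+PTX, against 7.49 to 7.80 in the 4 WT arrays. The means of 7 stroma and vessel genes were 10.32 to 10.53 in injected and 10.51 to 10.74 in untreated LN. The 3′ minus 5′ signal of the control transcripts was 0.44 in H3RKO CFA, against 0.16 to 0.35 elsewhere. The part of these differences in the values below was not tested beyond the fits described. Hrh3 itself averaged 7.24 ± 0.04 in H3RKO and 6.62 ± 0.05 in WT LN (SD, n = 4 each). Its probe set was thus higher in the knockout, and where that probe set lies relative to the deleted sequence is not given in the sources used here, so it does not check the labels and genotypes are as labelled throughout.

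The ER genes varied little between arrays. Mean log2 signals of their probe sets, chosen as the brightest of each gene, ran between 6.44 for Ern1 and 13.10 for Calr. The difference between a gene's highest and lowest array had a median of 0.27 and lay between 0.10 and 0.84, against a median of 0.30 over all genes. A range over 1 was seen in 0 of the 39 and in 2.776% of all genes. Chaperones and disulfide isomerases varied most, with median ranges of 0.36 and 0.37, followed by sensors and transcription factors at 0.25, translocation genes at 0.20 and degradation genes at 0.19. The heat map of all 39 genes shows the 2 gland-poor arrays in blue over most chaperone and isomerase rows.

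**Figure D1:**
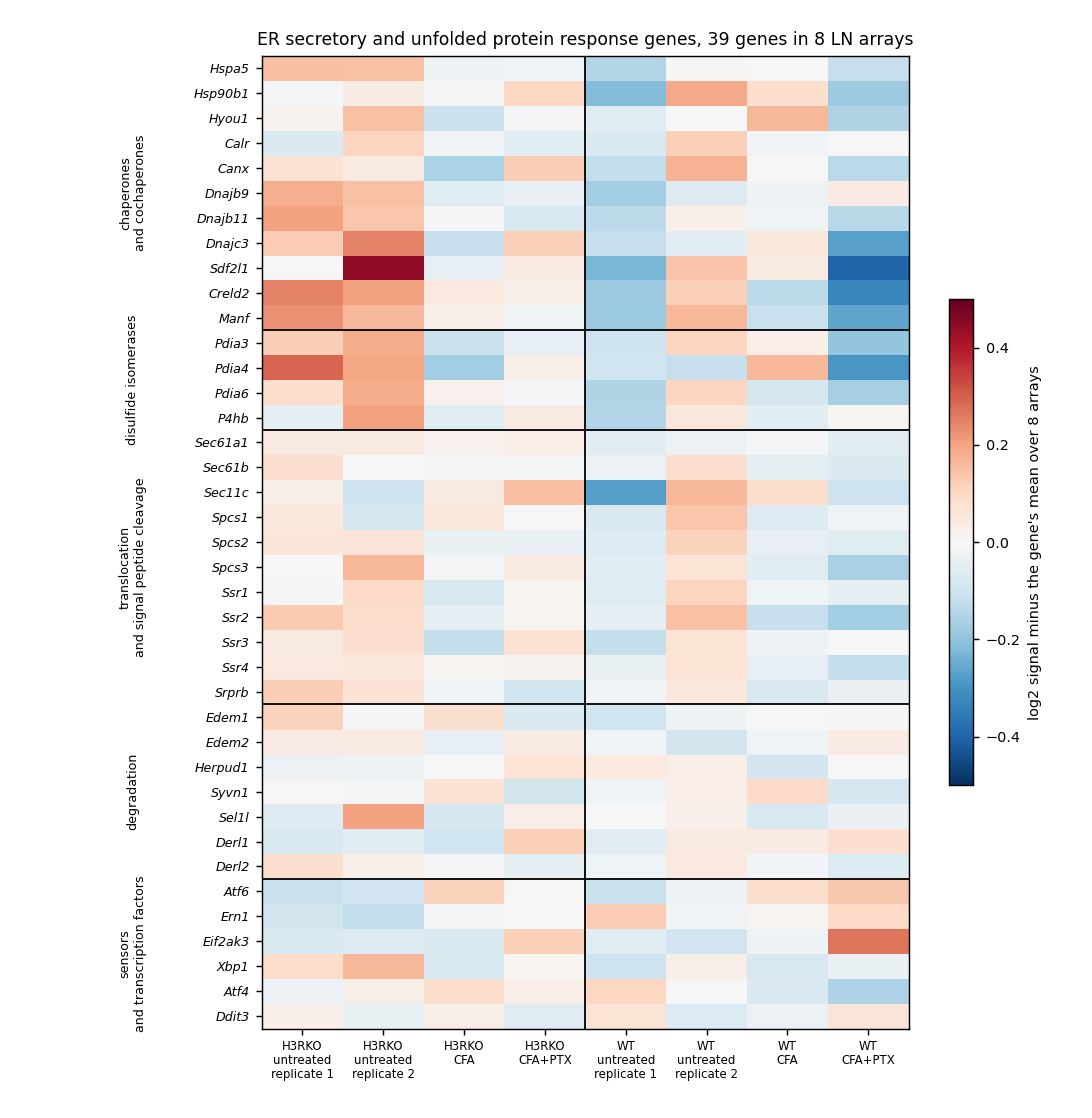
Log2 signal of each of the 39 ER genes (rows, by role) in each of the 8 arrays (columns, H3RKO before WT) as a difference from that gene's mean over the arrays. The colour scale is in log2 units, no gene spans more than 0.84, and most chaperone and disulfide isomerase rows are blue (below their mean) in WT untreated replicate 1 and WT CFA+PTX.

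The chaperones held the widest single range. Hspa5 (BiP, the main ER Hsp70) had 12.70 and 12.70 untreated, 12.53 after CFA and 12.53 after CFA+PTX in H3RKO LN, against 12.41 and 12.56 untreated, 12.56 after CFA and 12.44 after CFA+PTX in WT LN. Both untreated H3RKO arrays were above every other array, and the genotypes overlapped after injection. Sdf2l1, a BiP-associated cochaperone, had 9.45 and 9.90 untreated, 9.41 after CFA and 9.49 after CFA+PTX in H3RKO LN, against 9.23 and 9.60 untreated, 9.50 after CFA and 9.05 after CFA+PTX in WT LN. Its range of 0.84 was the widest of the 39 genes, with the low values in the 2 gland-poor WT arrays and the high one in H3RKO untreated replicate 2. Creld2, a disulfide isomerase-like stress gene, had 10.24 and 10.19 untreated, 10.04 after CFA and 10.02 after CFA+PTX in H3RKO LN, against 9.81 and 10.11 untreated, 9.86 after CFA and 9.67 after CFA+PTX in WT LN. WT untreated replicate 2 was above both injected H3RKO arrays, so the genotypes overlapped, and the lowest value was again WT CFA+PTX.

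Manf, a secreted BiP-binding protein of the response, had 11.27 and 11.21 untreated, 11.07 after CFA and 11.02 after CFA+PTX in H3RKO LN, against 10.86 and 11.21 untreated, 10.93 after CFA and 10.78 after CFA+PTX in WT LN. The 2 gland-poor arrays were the lowest, and WT untreated replicate 2 was level with the untreated H3RKO arrays. Dnajc3 (p58IPK, a BiP cochaperone and inhibitor of PERK) had 10.39 and 10.51 untreated, 10.15 after CFA and 10.38 after CFA+PTX in H3RKO LN, against 10.15 and 10.21 untreated, 10.31 after CFA and 9.99 after CFA+PTX in WT LN. The highest value was H3RKO untreated replicate 2 and the lowest WT CFA+PTX. Dnajb9 (ERdj4), which holds IRE1 inactive together with BiP, had 10.99 and 10.96 untreated, 10.75 after CFA and 10.77 after CFA+PTX in H3RKO LN, against 10.64 and 10.75 untreated, 10.78 after CFA and 10.85 after CFA+PTX in WT LN. Both untreated H3RKO arrays were above the other 6, and the WT CFA+PTX array was the third highest.

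Hyou1 (GRP170, the nucleotide exchange factor of BiP) had 10.49 and 10.62 untreated, 10.37 after CFA and 10.46 after CFA+PTX in H3RKO LN, against 10.41 and 10.47 untreated, 10.64 after CFA and 10.32 after CFA+PTX in WT LN. WT CFA was the highest array, and the lowest was WT CFA+PTX, followed by H3RKO CFA. Canx (calnexin), a membrane lectin for glycoproteins, had 11.71 and 11.68 untreated, 11.48 after CFA and 11.76 after CFA+PTX in H3RKO LN, against 11.51 and 11.81 untreated, 11.64 after CFA and 11.50 after CFA+PTX in WT LN. H3RKO CFA was the lowest array, next to both gland-poor arrays. Hsp90b1 (GRP94) was lowest in the gland-poor arrays, at 11.39 in WT untreated replicate 1 and 11.42 in WT CFA+PTX, against 11.60 to 11.79 in the other 6. Dnajb11 (ERdj3) showed the same order, at 10.54 and 10.53 against 10.59 to 10.87. Calr (calreticulin) had a range of 0.20, the narrowest of the chaperones.

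Among the disulfide isomerases, Pdia4 (ERp72) had 9.52 and 9.43 untreated, 9.06 after CFA and 9.26 after CFA+PTX in H3RKO LN, against 9.13 and 9.12 untreated, 9.40 after CFA and 8.94 after CFA+PTX in WT LN. The untreated genotypes did not overlap, with H3RKO above WT, but in CFA LN the order was turned round. Pdia3 (ERp57), which works on glycoproteins bound to calnexin and calreticulin, had 12.09 and 12.16 untreated, 11.86 after CFA and 11.93 after CFA+PTX in H3RKO LN, against 11.87 and 12.08 untreated, 12.00 after CFA and 11.77 after CFA+PTX in WT LN. WT CFA+PTX was the lowest array, and H3RKO CFA and WT untreated replicate 1 were next and level with each other. P4hb (PDI, the most abundant isomerase in many cells) had 12.35 and 12.59 untreated, 12.33 after CFA and 12.44 after CFA+PTX in H3RKO LN, against 12.25 and 12.45 untreated, 12.34 after CFA and 12.40 after CFA+PTX in WT LN. Its high array was H3RKO untreated replicate 2, and its low array WT untreated replicate 1. Pdia6 was 11.53 and 11.52 in the gland-poor arrays, against 11.60 to 11.87 in the other 6.

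Translocation genes were flatter. Sec61a1, the pore subunit of the channel, had 12.07 and 12.07 untreated, 12.05 after CFA and 12.06 after CFA+PTX in H3RKO LN, against 11.97 and 12.00 untreated, 12.02 after CFA and 11.97 after CFA+PTX in WT LN. It was the only one of the 39 genes with all 4 H3RKO arrays above all 4 WT arrays, a pattern seen in 0.831% of all genes (the reverse order was seen in 0 of the 39 and 1.03% of all genes), though the gap between the genotypes was under 0.03. Sec11c, a catalytic subunit of the signal peptidase, had 10.96 and 10.83 untreated, 10.98 after CFA and 11.09 after CFA+PTX in H3RKO LN, against 10.66 and 11.10 untreated, 11.02 after CFA and 10.83 after CFA+PTX in WT LN. The gland-poor arrays were the lowest and WT untreated replicate 2 the highest. Srprb, a subunit of the receptor for the signal recognition particle, had 9.30 and 9.24 untreated, 9.15 after CFA and 9.07 after CFA+PTX in H3RKO LN, against 9.16 and 9.22 untreated, 9.09 after CFA and 9.13 after CFA+PTX in WT LN. All 4 untreated arrays were above all 4 injected ones, an order found in 2.93% of all genes, and among these 39 only in Srprb.

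Spcs1, a noncatalytic signal peptidase subunit, had 11.87 and 11.74 untreated, 11.88 after CFA and 11.82 after CFA+PTX in H3RKO LN, against 11.74 and 11.96 untreated, 11.75 after CFA and 11.80 after CFA+PTX in WT LN. Ssr2, of the translocon-associated TRAP complex, had 10.21 and 10.16 untreated, 10.02 after CFA and 10.09 after CFA+PTX in H3RKO LN, against 10.03 and 10.22 untreated, 9.96 after CFA and 9.90 after CFA+PTX in WT LN. Ssr3, of the same complex, had 11.45 and 11.49 untreated, 11.28 after CFA and 11.47 after CFA+PTX in H3RKO LN, against 11.28 and 11.47 untreated, 11.38 after CFA and 11.40 after CFA+PTX in WT LN. None of these 3 separated the genotypes or the treatments, and ranges of the 11 translocation genes ended at 0.44, in Sec11c.

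The degradation genes had the narrowest ranges of the 5 roles. Herpud1, which holds the degradation complex together and is a target of both the ATF6 and PERK branches, had 11.40 and 11.40 untreated, 11.43 after CFA and 11.50 after CFA+PTX in H3RKO LN, against 11.48 and 11.46 untreated, 11.34 after CFA and 11.43 after CFA+PTX in WT LN. Syvn1 (HRD1), the ubiquitin ligase of the complex, had 11.08 and 11.07 untreated, 11.15 after CFA and 10.99 after CFA+PTX in H3RKO LN, against 11.06 and 11.11 untreated, 11.17 after CFA and 10.99 after CFA+PTX in WT LN. Over all arrays both genes overlapped between genotypes, though in untreated LN Herpud1 was lower in both H3RKO arrays than in both WT arrays. Syvn1 was lowest in the 2 CFA+PTX arrays. Derl1, a channel-forming member of the complex, had 11.29 and 11.31 untreated, 11.27 after CFA and 11.48 after CFA+PTX in H3RKO LN, against 11.31 and 11.41 untreated, 11.41 after CFA and 11.45 after CFA+PTX in WT LN. Edem1, which removes mannose from proteins bound for degradation, had 10.69 and 10.57 untreated, 10.65 after CFA and 10.50 after CFA+PTX in H3RKO LN, against 10.47 and 10.55 untreated, 10.57 after CFA and 10.58 after CFA+PTX in WT LN. Derl1 was highest in H3RKO CFA+PTX and Edem1 in H3RKO untreated replicate 1, with the genotypes overlapping in both.

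Among the sensors, Atf6, an ER membrane protein that is cut to release a transcription factor, had 8.94 and 8.96 untreated, 9.17 after CFA and 9.05 after CFA+PTX in H3RKO LN, against 8.94 and 9.03 untreated, 9.14 after CFA and 9.19 after CFA+PTX in WT LN. All 4 injected arrays were above all 4 untreated ones, as in 3.36% of all genes, and among these 39 only in Atf6. Eif2ak3 (PERK) had 9.89 and 9.90 untreated, 9.89 after CFA and 10.08 after CFA+PTX in H3RKO LN, against 9.91 and 9.87 untreated, 9.94 after CFA and 10.23 after CFA+PTX in WT LN. The 2 CFA+PTX arrays stood above the other 6, and WT CFA+PTX was the higher. Ern1 (IRE1) had 6.35 and 6.32 untreated, 6.44 after CFA and 6.44 after CFA+PTX in H3RKO LN, against 6.57 and 6.43 untreated, 6.46 after CFA and 6.54 after CFA+PTX in WT LN. It had the lowest signal of the 39 probe sets, and the gland-poor arrays were its 2 highest.

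Of the transcription factors, Xbp1 had 12.50 and 12.57 untreated, 12.33 after CFA and 12.42 after CFA+PTX in H3RKO LN, against 12.30 and 12.43 untreated, 12.32 after CFA and 12.37 after CFA+PTX in WT LN. Both untreated H3RKO arrays were the highest, with WT untreated replicate 2 next. Nothing in the files separates spliced from unspliced Xbp1 mRNA, so this level is no reading of IRE1 activity. Atf4, which is controlled mainly at translation, had 11.43 and 11.49 untreated, 11.55 after CFA and 11.50 after CFA+PTX in H3RKO LN, against 11.57 and 11.47 untreated, 11.39 after CFA and 11.31 after CFA+PTX in WT LN. H3RKO CFA and WT untreated replicate 1 were its high arrays and WT CFA+PTX its low one. Ddit3 (CHOP), the late transcriptional target of the PERK branch, had 9.19 and 9.13 untreated, 9.20 after CFA and 9.11 after CFA+PTX in H3RKO LN, against 9.24 and 9.10 untreated, 9.14 after CFA and 9.23 after CFA+PTX in WT LN. Its range of 0.14 was below the median over all genes, with the genotypes overlapping and the gland-poor arrays the 2 highest. The plot of 12 ER genes by array shows these levels side by side.

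**Figure D2:**
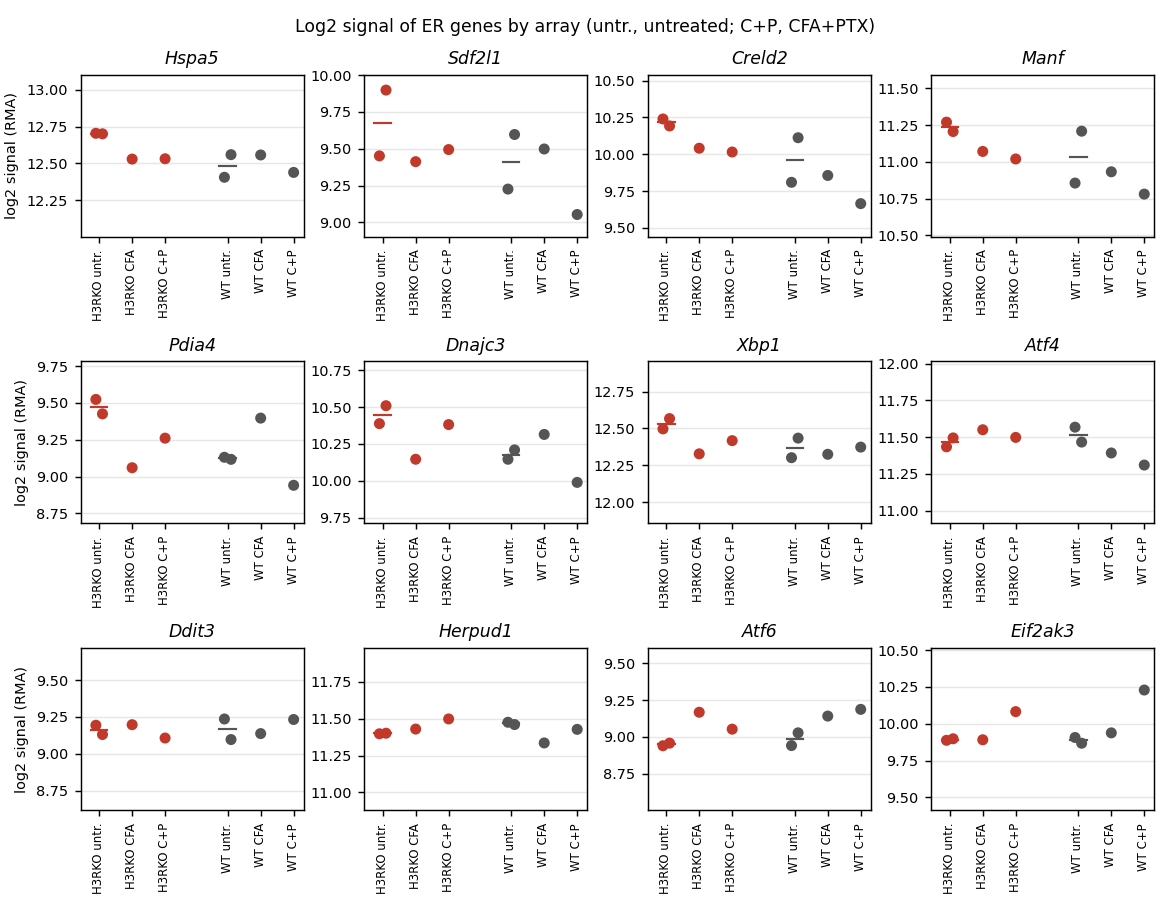
Log2 signal of 12 ER genes in each array, 1 panel per gene, with the H3RKO arrays left of the WT arrays and treatments in the order untreated, CFA, CFA+PTX (C+P) within each. Points are single arrays and bars the mean of the 2 untreated arrays. Sdf2l1, Creld2 and Manf are lowest in WT CFA+PTX, Eif2ak3 is highest there, and Atf6 is higher in the 4 injected arrays than in the 4 untreated ones.

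The first question was whether ER gene levels followed the gland genes or the plasma cell genes. Between the 2 gland-poor arrays and the other 6, 32 of the 39 ER genes were lower in the gland-poor arrays, with a median difference of -0.09, against 42.459% of all genes and a median of 0.02. The count was 11 of 11 among chaperones (median -0.18), 4 of 4 among disulfide isomerases (median -0.21), 11 of 11 among translocation genes (median -0.08), 4 of 7 among degradation genes (median -0.02) and 2 of 6 among sensors and transcription factors (median 0.05). Sdf2l1 averaged 9.14 in the gland-poor arrays and 9.56 in the others, a difference of -0.42, followed by Creld2 at -0.34, Manf at -0.30 and Hsp90b1 at -0.27. Ern1 (0.15) and Eif2ak3 (0.14) lay the other way. Both gland-poor arrays were below all the others in 11 of the 39 genes, against 5.25% of all genes. These were Hspa5, Hsp90b1, Dnajb11, Sdf2l1, Creld2, Manf, Pdia6, Sec61a1, Sec11c, Spcs2 and Spcs3. They were above all the others in 2 of the 39, Ern1 and Ddit3, against 9.99% of all genes. The lowest of the 8 arrays was WT CFA+PTX for 15 of the 39 genes (15.7% of all genes) and WT untreated replicate 1 for 11 (10.5%). In a bulk sample fewer cells of a type and less RNA per cell cannot be told apart.

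The 2 untreated WT pools, which share genotype and treatment, gave the same order. Replicate 1, the gland-poor one, was below replicate 2 in 32 of the 39 genes (median -0.11), against 43.896% of all genes (median 0.02). In the H3RKO pair replicate 1 was below replicate 2 in 21 of 39, against 50.303% of all genes. Pip and Bpifa2 differed there by less than in the WT pair, and the mean of the 15 gland genes was 10.70 in replicate 1 and 11.42 in replicate 2.

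Slopes were then fitted with limma over all 8 arrays, in log2 units of the ER gene per log2 unit of the reference gene. These fits had no term for genotype or treatment. Pip averaged 13.12 in H3RKO and 10.06 in WT arrays, so a slope on it and a genotype difference were not separated. On Pip, 32 of the 39 slopes were positive, against 43.008% of all genes. After Benjamini-Hochberg adjustment over 22626 probe sets limma called 0 of the 39 (lowest adjusted p = 0.17, Sdf2l1) and 0.105% of all genes, and a linear model without moderation called 0. At an unadjusted p under 0.05, limma gave 11 positive slopes (4.79% of all genes) and 1 negative one (11.1%). The 11 were Hsp90b1, Dnajc3, Sdf2l1, Creld2, Manf, Pdia3, Pdia4, Pdia6, Spcs3, Ssr2 and Ssr4, and the negative one was Eif2ak3. The slope was 0.063 ± 0.016 for Sdf2l1, 0.050 ± 0.014 for Creld2 and -0.030 ± 0.011 for Eif2ak3 (SE of the limma fit). Without the WT CFA+PTX array the slope was 0.11 for Sdf2l1, 0.084 for Creld2 and 0.005 for Eif2ak3. Hspa5 had 0.022 ± 0.011 and Herpud1 -0.0018 ± 0.0076, neither past that level.

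On Bpifa2, 31 of the 39 slopes were positive, against 44.388% of all genes. limma called 0 after adjustment (0.113% of all genes; lowest adjusted p = 0.25). Before adjustment 5 positive slopes had a p under 0.05 (Dnajc3, Sdf2l1, Creld2, Manf and Spcs3, against 4.35% of all genes), and so had the negative slope of Eif2ak3 (9.56%). The plasma cell genes came next. On Sdc1 (syndecan-1) 25 of the 39 were positive, against 45.59% of all genes. Only Srprb, at 0.47 ± 0.20, had an unadjusted p under 0.05 (2.82% of all genes positive and 2.85% negative at that level). limma called 0% of all genes and 0 of the 39, with a lowest adjusted p of 0.74. On Jchain 25 of the 39 were positive, against 45.469% of all genes. At an unadjusted p under 0.05 there were 0 (1.66% of all genes were positive and 3.78% negative at that level). limma called 0, with a lowest adjusted p of 0.85. Without the WT CFA+PTX array 12 of the 39 slopes on Jchain were positive (51.1% of all genes), and 35 of those on Pip (41.4%). The references differed in reach, since Pip and Bpifa2 moved by several log2 units and Sdc1 and Jchain by only 0.42 and 0.65, so a slope on a plasma cell gene was measured with a wider error. The gland mean (of Pip and Bpifa2) and the plasma cell mean (of Sdc1 and Jchain) were then held together in 1 model. There 4 slopes on the gland mean had an unadjusted p under 0.05 and were positive (Hsp90b1, Dnajc3, Sdf2l1 and Spcs3, against 2.88% of all genes). At that level 0 were negative (5.88%). On the plasma cell mean there were 0 (1.58% of all genes positive and 2.62% negative). After adjustment limma called 0 of the 39 on the gland mean (0.0726% of all genes) and 0 on the plasma cell mean, as did the linear model without moderation. The slopes on Pip rest largely on the 2 gland-poor arrays. Without them, over a Pip range of under 1 log2 unit, 30 of the 39 were positive (42.4% of all genes), 4 with an unadjusted p under 0.05 (2.76% of all genes). The slopes were then steeper, with a median of 0.14 against 0.011 over all 8 arrays, and Sdf2l1 had 0.57. limma called 0 (lowest adjusted p = 0.78). Among the arrays left, Pip was lowest in the 2 CFA arrays (12.79 and 12.91). It was 13.07 to 13.46 in the untreated arrays and 13.15 in H3RKO CFA+PTX. This fit had no term for treatment, so Pip and treatment were not separated in it.

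**Figure D3:**
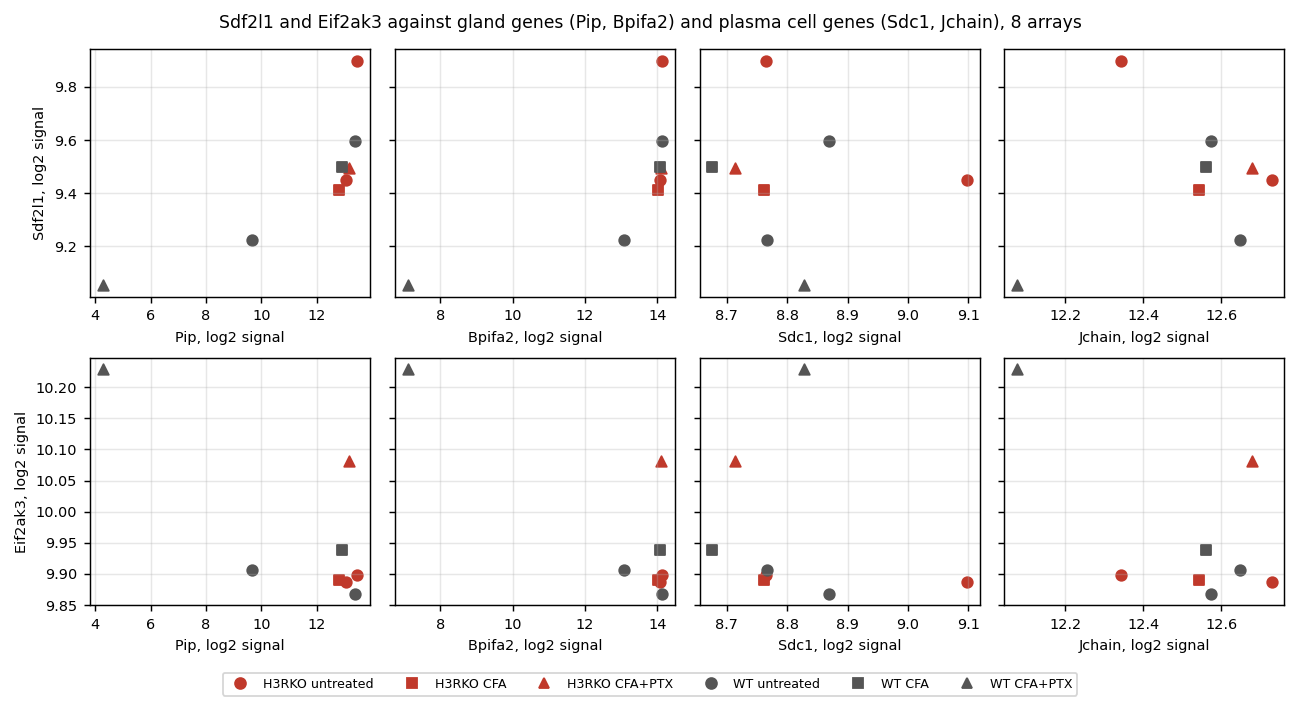
Log2 signal of Sdf2l1 and Eif2ak3 (vertical axes) against that of Pip, Bpifa2, Sdc1 and Jchain (horizontal axes) in the 8 arrays, with H3RKO in red, WT in grey and treatments by symbol. The 2 arrays far to the left in the Pip and Bpifa2 panels are WT CFA+PTX and WT untreated replicate 1, where Sdf2l1 is lowest (9.05 and 9.23), and Eif2ak3 is highest in WT CFA+PTX (10.23).

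The second question was whether the genotypes differed. In untreated LN 30 of the 39 ER genes were higher in H3RKO and 9 lower, with a median difference (H3RKO minus WT) of 0.06, against a median of -0.02 and 42.823% higher over all genes. limma called 0 of the 39 after adjustment, as it did of all genes (0%), with a lowest adjusted p of 0.92, and a linear model without moderation also called 0. At an unadjusted p under 0.05, 3 were higher (1.69% of all genes) and 0 lower (3.2%). They were Pdia4 at 0.35 ± 0.09, Dnajb9 at 0.28 ± 0.09 and Dnajc3 at 0.27 ± 0.09 (SE of the limma fit). By role, H3RKO was higher in 10 of 11 chaperones (median 0.22), 4 of 4 disulfide isomerases (median 0.16), 10 of 11 translocation genes (median 0.04), 4 of 7 degradation genes (median 0.04) and 2 of 6 sensors and transcription factors (median -0.02). One of the WT arrays in this comparison was gland-poor, and without it the split was 22 higher to 17 lower with a median of 0.02 (47.4% of all genes higher). The neutrophil genes moved with genotype, with 10 of 10 higher on average in H3RKO. In 5 of 10 (S100a8, S100a9, Ngp, Ltf and Camp) all 4 H3RKO arrays were above all 4 WT arrays, against 0.831% of all genes. Camp did so narrowly, with 7.38 in its lowest H3RKO array and 7.37 in its highest WT array. The part of the neutrophil genes in the genotype differences was not tested.

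After CFA, with 1 array a side, 19 ER genes were higher in H3RKO and 20 lower. The median was -0.0009 (0.04 over all genes, of which 62.261% were higher). limma called 0 (0% of all genes; lowest adjusted p = 1.00), and the linear model without moderation 0. The only gene with an unadjusted p under 0.05 was Pdia4, lower by this measure at -0.34 ± 0.12 (0.839% of all genes were lower and 1.51% higher at that level). Hyou1 differed by -0.27 and Creld2 by 0.19. Neither CFA array was gland-poor.

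After CFA+PTX, again 1 array a side and with the WT array gland-poor, 29 ER genes were higher in H3RKO and 10 lower. The median was 0.07 (-0.03 over all genes, of which 41.556% were higher). limma called 0 (0% of all genes; lowest adjusted p = 1), and the linear model without moderation 0. Dnajc3 at 0.39 ± 0.13 and Pdia4 at 0.32 ± 0.12 had an unadjusted p under 0.05 and were higher (1.12% of all genes), and 0 were lower (2.24%). Sdf2l1 had the largest of the 39 differences, 0.44 ± 0.27, which did not pass, and Eif2ak3 the lowest, -0.15. The genotype difference after CFA+PTX was compared with that in untreated LN as an interaction, and 0 of the 39 passed either threshold (lowest adjusted p = 1.00 by limma). Of all genes 1% were higher and 1.45% lower at an unadjusted p under 0.05, and 0% after adjustment.

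**Figure D4:**
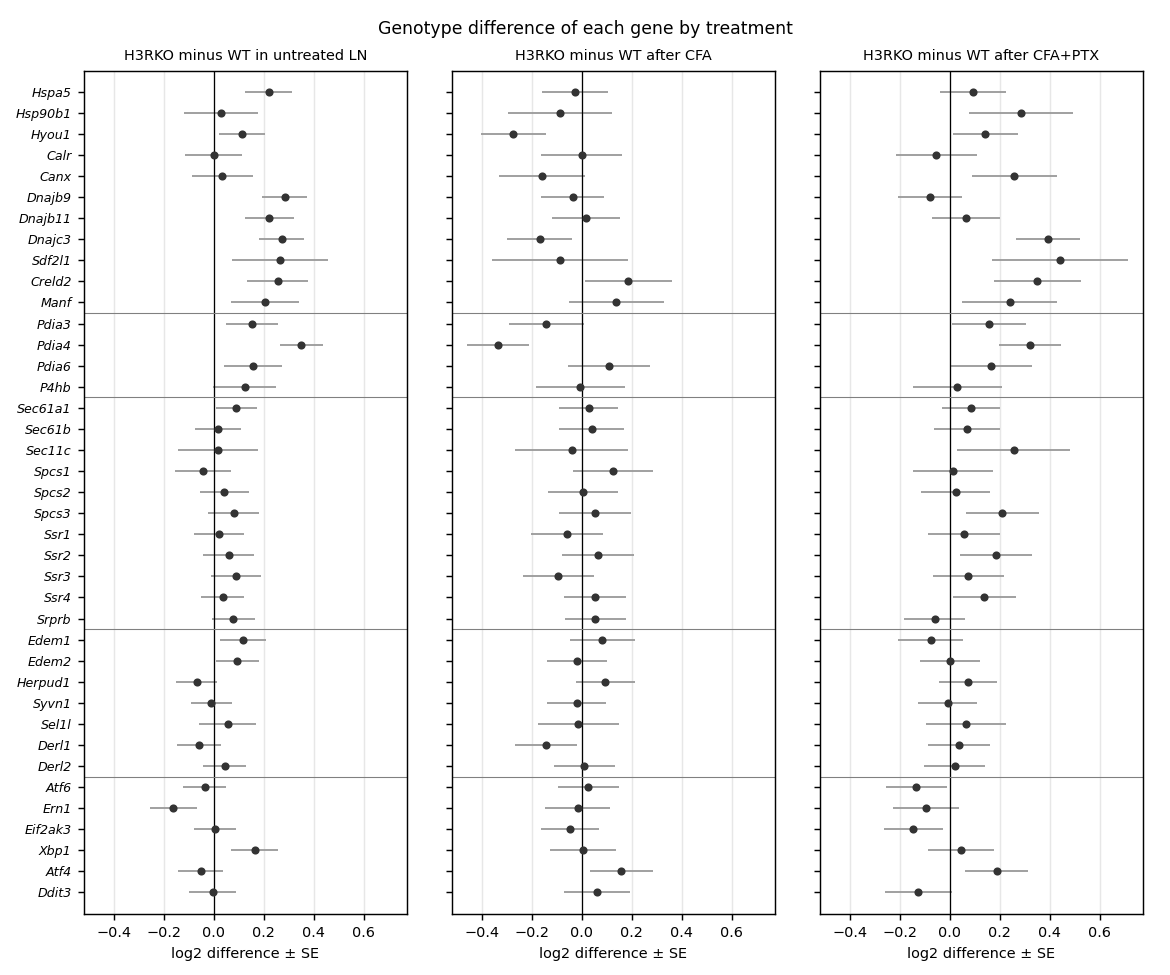
H3RKO minus WT log2 difference of each of the 39 ER genes (rows, by role) in untreated LN, after CFA and after CFA+PTX, 1 panel each. Points are differences and lines the standard error of the limma fit. Most chaperones and isomerases lie right of 0 in untreated and CFA+PTX LN, where a WT array was gland-poor. After CFA 19 genes are higher and 20 lower, against 62.261% of all genes higher, and Pdia4 lies at -0.34.

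Over all treatments, with terms for genotype and treatment, 32 of the 39 were higher in H3RKO and 7 lower, with a median of 0.06 against -0.01 over all genes, of which 46.026% were higher. limma called 0 (0% of all genes; lowest adjusted p = 1.00), as did the linear model without moderation. Creld2 at 0.26 ± 0.08 and Manf at 0.20 ± 0.08 were higher at an unadjusted p under 0.05 (1.29% of all genes), and 0 were lower (2.55%). Both gland-poor arrays were WT. Without them, an alternative added after seeing the data, 23 were higher and 16 lower. The median was then 0.01 (also 0.01 over all genes, of which 55.1% were higher), and Creld2 differed by 0.14 and Sdf2l1 by 0.01. That fit held no WT CFA+PTX array, so its genotype difference rested on untreated and CFA LN only. It cannot show whether the difference after CFA+PTX went with gland content. With the gland mean as a term and all arrays kept, 25 were higher (52.9% of all genes), the median was 0.02 (0.01 over all genes) and 0 had an unadjusted p under 0.05. With the plasma cell mean as the term, 32 were higher (47.1% of all genes), the median was 0.05, and Creld2 kept an unadjusted p under 0.05 at 0.24.

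The third question was whether injected LN differed from untreated LN. The comparisons of CFA and of CFA+PTX with untreated LN used the same 4 untreated arrays. After CFA, 11 ER genes were higher than in untreated LN and 28 lower, with a median of -0.06 (0.01 over all genes, of which 55.7% were higher). limma called 0 (0% of all genes; lowest adjusted p = 0.76), and the linear model without moderation 0. Atf6 alone had an unadjusted p under 0.05 and was higher, by 0.19 ± 0.07 (SE), against 2.78% of all genes higher and 3.31% lower at that level. Xbp1 differed by -0.12, Manf by -0.13 and Creld2 by -0.14, none past that level. Of 7 stroma and vessel genes, 4 were lower on average in the injected arrays and 3, Pecam1, Cdh5 and Lyve1, were higher. The collagens Col1a1, Col1a2 and Col3a1 were lower in all 4 injected arrays than in all 4 untreated ones. That order was found in 2.93% of all genes. Col1a1 was 9.26 to 9.34 injected and 9.74 to 10.38 untreated, and Col3a1 was 10.83 to 11.15 injected and 11.50 to 12.33 untreated. Over all 4 injected arrays, the gland genes were lower on average in 15 of 15 and the plasma cell genes in 9 of 10, with overlap in each. The injected arrays include gland-poor WT CFA+PTX, with a gland mean of 5.42. The gland means of the CFA arrays, 10.67 in H3RKO and 10.71 in WT, lay within the untreated 8.30 to 11.42. The part of these markers in the injected against untreated differences was not tested.

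After CFA+PTX, 10 were higher than in untreated LN and 29 lower, with a median of -0.05 (0.01 over all genes, of which 52.2% were higher). limma called 0 (0% of all genes; lowest adjusted p = 0.23, Eif2ak3), and the linear model without moderation 0. Eif2ak3 at 0.27 ± 0.06 and Atf6 at 0.15 ± 0.07 were higher at an unadjusted p under 0.05 (7.55% of all genes), Atf6 only just. Creld2 was lower by this measure, at -0.25 ± 0.09, against 5.54% of all genes. Of the 11 chaperones 0 were higher, with a median of -0.11. Hspa5 differed by -0.11 ± 0.08, Ddit3 by 0.00 ± 0.07 and Herpud1 by 0.03 ± 0.07. One of the 2 CFA+PTX arrays was gland-poor, and without both gland-poor arrays the split was 11 higher to 28 lower with a median of -0.04 (49.4% of all genes higher), 0 had an unadjusted p under 0.05, and Eif2ak3 differed by 0.20.

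Set against CFA, CFA+PTX LN had 14 ER genes higher and 25 lower, with a median of -0.02 (48.8% of all genes higher). limma called 0 (0% of all genes), and the linear model without moderation 0. Eif2ak3 was higher, by 0.24, and Syvn1 lower, at -0.17, at an unadjusted p under 0.05 (3.33% of all genes higher and 2.65% lower). Without the gland-poor arrays the split was 23 higher to 16 lower, against 43.1% of all genes higher.

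Under the criterion given in the methods, which asks for a change of more than 2-fold beside an unadjusted p under 0.05, 0 of the 39 genes passed in any comparison. The share of all genes that passed was 0.161% for genotype in untreated LN, 0.145% after CFA, 0.347% after CFA+PTX, 0.307% for the interaction and 0.0726% over all treatments. It was 0.137% for CFA against untreated, 0.218% for CFA+PTX against untreated and 0.0888% for CFA+PTX against CFA.

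The genes with an ERSE could be set beside the rest for 31 genes with both a promoter and a level. The 8 with an ERSE had a median range over the arrays of 0.34, and the 23 without had 0.22. All 8 had a positive slope on Pip (median 0.027), 4 of them with an unadjusted p under 0.05, against 18 positive slopes of 23 (median 0.0075) in the genes without. Of the 23, 5 were past that level, among them Eif2ak3 with its negative slope. In CFA+PTX against untreated LN 0 of the 8 were higher (median -0.10), against 7 of the 23 (median -0.05). Over all treatments the median H3RKO minus WT difference was 0.09 with an ERSE and 0.04 without. Sdf2l1, with the widest range of all, had no ERSE in its window. Apart from Pdia6 and Syvn1, the genes with an ERSE were chaperones. By role, the slope on Pip was positive in 11 of 11 chaperones (median 0.024) and 4 of 4 disulfide isomerases (median 0.03). The element and the role were thus not separated, and a part of the ERSE apart from role was not tested.

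Other genes of the same and neighbouring pathways, from 8 lists with 122 genes measured, gave 0 calls in any of the comparisons by limma. Over all treatments 95 were higher in H3RKO and 27 lower (46.026% of all genes higher). On Pip 82 slopes were positive (43.008% of all genes). At an unadjusted p under 0.05, 27 were positive (4.79% of all genes) and 4 negative (11.1%). Cytosolic and mitochondrial chaperones, which lie outside the ER, were higher in H3RKO in 17 of 17 (median 0.06). Their slope on Pip was positive in 16 of 17 and negative in 1 (median 0.02). At an unadjusted p under 0.05 by limma, 7 of the 17 were positive and 0 negative. A positive slope on Pip was thus not particular to genes of the ER. In CFA+PTX against untreated LN 1 of the 17 was higher and 16 lower (median -0.18), 7 of them with an unadjusted p under 0.05 (5.54% of all genes). Among them the heat shock genes Hspa1b, Hsph1 and Hsp90aa1 differed by -0.66, -0.52 and -0.42. Fkbp11, a prolyl isomerase of secretory cells, had the slope on Pip of 0.121 ± 0.024 (SE, adjusted p = 0.12 by limma), steeper than that of any of the 39. Of the integrated stress response genes, 12 of 23 were higher in CFA+PTX than in untreated LN, among them Slc7a5 at 0.71 and Ddit4 at 0.51, with Slc7a11 at -0.49.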

How the data were processed

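RNA of pooled LN was hybridised to Affymetrix mouse genome arrays, 1 array a pool. The authors deposited log2 values made by RMA (background correction, quantile normalization, median polish) in Partek Genomic Suites 6.6. Quantile normalization gives every array the same distribution, so a shift common to all genes cannot be seen. Tests covered 22626 probe sets, leaving out 64 control probe sets, with gene names from the platform annotation (20380 with 1 gene, 691 with several, 1555 with none). Tests used limma 3.58.1 in R 4.3.3 with Benjamini-Hochberg adjustment over all probe sets. A mean for each of 6 groups served comparisons within a treatment, genotype plus treatment terms the others, and a reference gene as a covariate the slopes. Scripts were tested on simulated data. Values in every array were given for the 4 highest and 4 lowest genes of each comparison and for Hspa5, Sdf2l1, Herpud1, Xbp1, Atf4 and Ddit3, with others added after their values were seen (Sec61a1, Srprb, Dnajb11, Hsp90b1, Pdia6). The genes, lists and tests were chosen with earlier results of these data known. Alternatives were an unmoderated linear model, a filter on dim probe sets, other choices of probe set, covariates and leaving out arrays.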

Additional observations from a re-analysis of the deposited data

How the results depend on the processing

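After adjustment 0 of the 39 genes were called under every alternative run, which covered an unmoderated linear model, a filter on dim probe sets, other choices of probe set, added covariates and leaving out arrays. A looser threshold, an unadjusted p under 0.05, took 3 genes in untreated LN, 1 after CFA, 2 after CFA+PTX, 2 over all treatments, 1 for CFA against untreated, 3 for CFA+PTX against untreated and 2 for CFA+PTX against CFA. Of 235 alternatives for these counts 228 left the count as it was and 7 raised it. Of 128 for the medians 126 moved by less than 0.0638, the SD of the median between untreated replicates. Every main median but the 0.0681 for genotype after CFA+PTX was smaller than this limit, so a median could vanish within it. Without both gland-poor arrays the genotype median over all treatments, then resting on untreated and CFA LN only, fell from 0.0597 to 0.0091 and counted as unmoved. The 126 therefore do not show that the medians were stable. Leaving out 1 array at a time moved the median genotype difference in untreated LN between 0.0214 and 0.142, and that of the interaction between -0.052 and 0.0721.

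Of 1204 alternatives for 74 single-gene results 19 turned the sign, and the cause was not tested. With the mean of its probe sets Derl1 became 0.0817 in untreated LN and 0.0303 over all treatments. Without probe sets marked as cross-hybridising it became 0.0629 and 0.0236 there, -0.0636 for CFA+PTX against untreated and -0.0279 for CFA+PTX against CFA. Dnajc3 after CFA became 0.0109 with the mean of its probe sets. For CFA+PTX against CFA, Sdf2l1 became 0.0353 without both gland-poor arrays and 0.0559 with the gland mean added (-0.3857 to 0.0231 leaving out 1 array), Pdia4 became 0.0023 and 0.0033 (-0.4665 to 0.2111), and Hyou1 lay between -0.3097 and 0.0871. The slope of Ssr4 on Pip became -0.0118 with the mean of its probe sets and -0.0326 without those marked as cross-hybridising. The slope of Eif2ak3 lay between -0.0346 and 0.005 on Pip and between -0.0477 and 0.0218 on Bpifa2, and was 0.1581 on Bpifa2 without both gland-poor arrays.

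The untreated arrays share replicate numbers only. With the replicate block, in a fit of the untreated arrays only, 0 genes were called, with a median of 0.0593 and 4 at an unadjusted p under 0.05. The share of all genes at that level was not counted in this fit, so the 4 have no background. Deviations of same-numbered arrays correlated at 0.123 over 22626 probe sets, from 2 pairs. The number of arrays limits the precision throughout, and single injected arrays were assumed to vary like the untreated pairs. Of the 39 genes, 23 had more than 1 probe set. For the genotype difference over all treatments, 11 of the 23 had a probe set of the other sign. The number was 11 for the genotype difference after CFA+PTX and 13 for the slope on Pip, so directions depend on the probe set chosen.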
